A study of Mus musculus with 8 samples.

Results

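The constitutive proteasome genes of mouse 3T3-L1 cells were followed after exposure to medium from human macrophage-like cells. Members were all mouse genes with a symbol of the form Psma, Psmb, Psmc, Psmd, Psme, Psmf or Psmg plus a number, without the immunoproteasome genes Psmb8, Psmb9 and Psmb10 and without 6 pseudogenes. This gave 48 genes, of which 47 had a probe on the array and 45 passed the filter for a signal above background, of 25793 genes and unnamed probes tested in all. Each gene was represented by its brightest probe, and the 45 were above background on all 8 arrays. Psma8 and Psmb11 were above background on 0 of 8 arrays, and Psme2b had no probe. The symbol pattern also took in Psmc3ip, a meiotic recombination factor, and Psme3ip1, which encodes a protein that binds the activator Psme3. They are kept in the 45 and are not subunits.

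The recipient cells, 3T3-L1, are a mouse preadipocyte line that had been held in adipogenic medium for 1 week after growth with 10% fetal calf serum. All of them received culture supernatant, diluted 2-fold, from HL-60 cells, a human promyelocytic leukaemia line turned macrophage-like with 30 nM phorbol ester (PMA) over 5 days. The supernatant came either from HL-60 cells with a knockdown (KD) of the deubiquitinase USP2 or from mock-vector controls, so the knockdown was in the human donor cells and not in the mouse cells measured. Total RNA was taken after 3 h or 6 h, which gave 4 groups of 2 one-colour arrays each: KD 6 h, KD 3 h, control 6 h and control 3 h. No group without supernatant was analysed here. The design asks whether macrophage USP2 changes what the medium does to these 3T3-L1 cells, and the time points show how the genes moved under either medium.

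The proteasome degrades proteins tagged with ubiquitin. Its barrel-shaped 20S core, built from alpha and beta rings, holds the proteolytic sites, and the 19S regulatory particle on its ends binds ubiquitin chains, removes them and unfolds the substrate with a ring of ATPases. Dedicated chaperones assemble the parts, and other activators and an inhibitor can bind the core. In mammals the transcription factor Nfe2l1 raises the subunit genes together when proteasome activity is short, and Nfe2l2, its relative in the antioxidant response, can act on some of them. In mouse brown fat Nfe2l1 is known to sustain proteasome supply during cold exposure.

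On each array 50.7% to 55.9% of spots gave a signal above background and 0 were saturated. All arrays lay on 1 slide: both 6 h groups were in row 2 and both 3 h groups in row 1, and KD arrays were in columns 3 and 4 and control arrays in columns 1 and 2. Slide row and time therefore cannot be told apart, and neither can slide column and supernatant. Of the adipocyte markers, 4 of 10 were above background on all 8 arrays (Fabp4, Pparg, Lpl and Cebpa) and 5 on none (Adipoq, Cidec, Cd36, Cfd and Lep), while 7 of 7 preadipocyte and fibroblast markers were above background on all 8. Of 6 macrophage and leukocyte markers, 5 of which had a probe, Csf1r, Itgam and Cd14 were above background on all 8 arrays and Ptprc and Adgre1 on none. Of 6 endothelial and muscle markers, Pecam1 and Kdr were above background on all 8 arrays and Cdh5, Myod1, Myog and Myh11 on none. Their part in the results was not tested.

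Values are given as scaled log2 signals, the log2 of a probe's signal minus the log2 of the 75th percentile of signals on its array, and differences as log2 fold changes with the standard error (SE) of the limma model. A gene counted as changed when its p was under 0.05 after Benjamini-Hochberg adjustment across the 25793 genes and probes. Because probes differ in how well they bind, levels are compared between arrays for 1 gene and not between genes. The labels name the duplicates biological replicates without saying whether cultures or supernatant preparations were separate, so the p-values speak only of the scatter of these samples, which may be technical.

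None of the 45 proteasome genes passed the limma test between KD and control supernatant, at 3 h or at 6 h, and 0 and 3 of them had an unadjusted p under 0.05, a level that 10.56% and 19.32% of all genes and probes reached. Over all genes and probes 0.244% passed at 3 h (0.225% higher with KD supernatant and 0.0194% lower) and 2.28% at 6 h (1.6% higher and 0.682% lower). The intervals were narrow: the 95% confidence interval of the KD minus control difference lay within 1.5-fold in either direction for 44 of 45 genes at 3 h and for 43 of 45 at 6 h. The exceptions were the inhibitor gene Psmf1 at both times and the assembly chaperone gene Psmg4 at 6 h. A p that misses the threshold does not show that values did not differ. For most members a difference above 1.5-fold lay outside the interval, under the scaling used. Interval counts are not given for other scalings, which move the differences. With each array scaled by its median, the 6 h median over all genes and probes was 0.19, in place of 0.00. The intervals rest on duplicates whose scatter may be technical, so they do not bound a difference between separate cultures. In such bulk RNA, fewer cells of a type and less RNA per cell cannot be told apart.

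**Figure D1:**
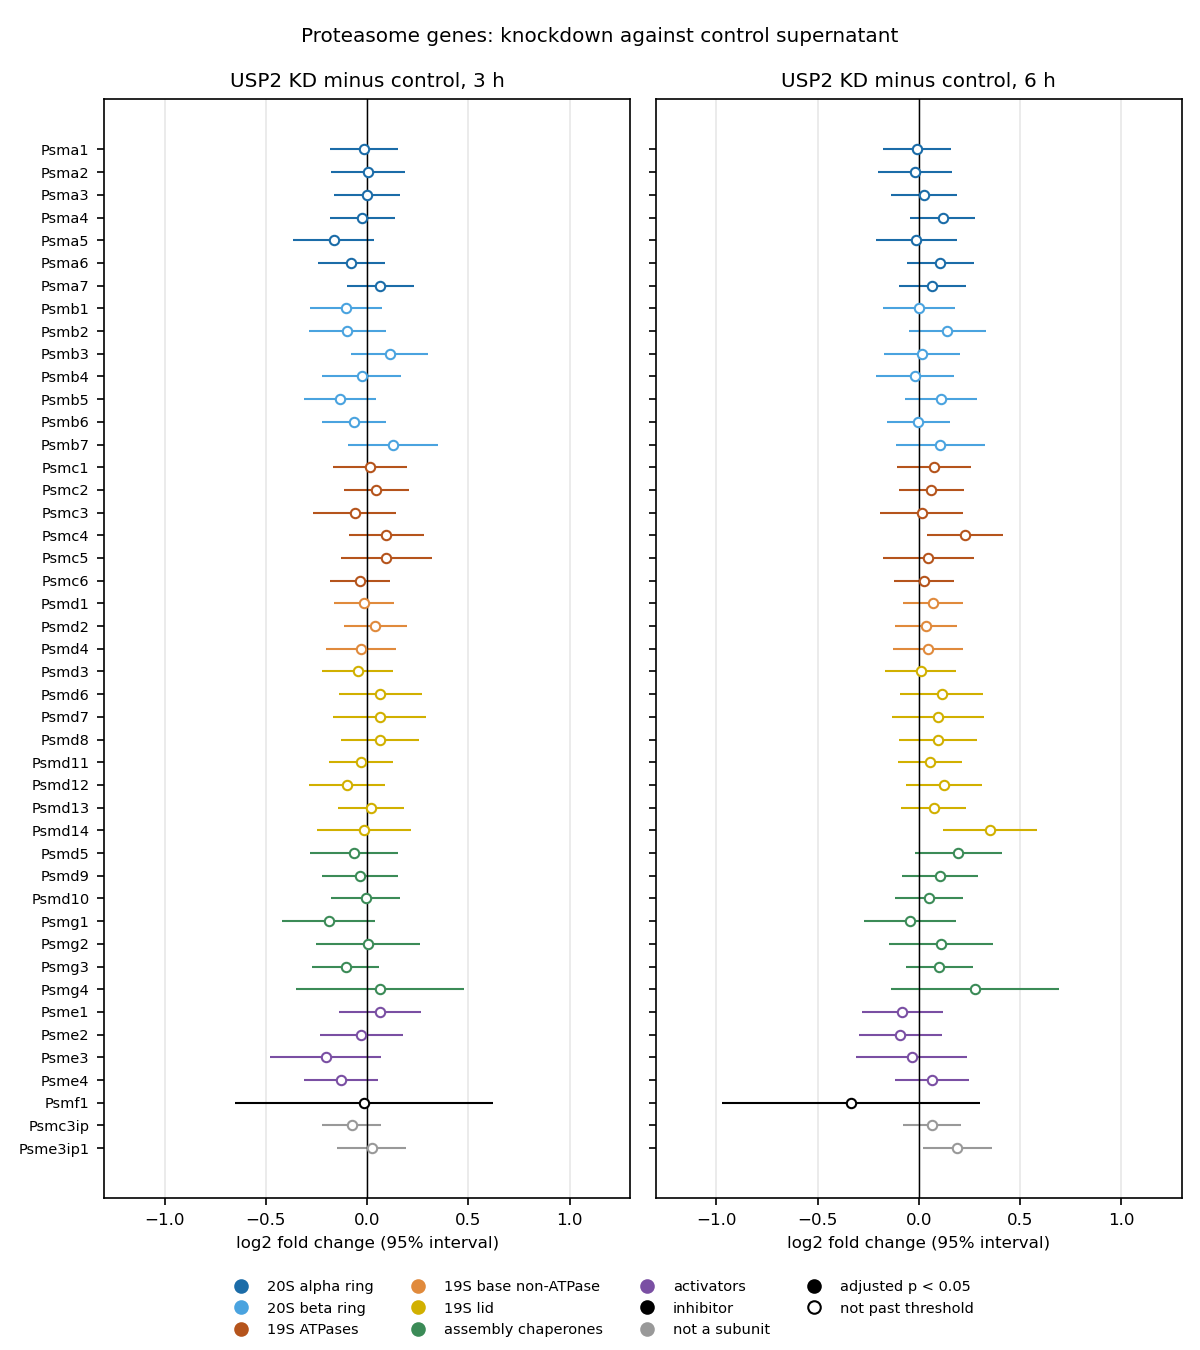
Log2 fold change of KD over control supernatant for each of the 45 proteasome genes at 3 h (left) and 6 h (right), with 95% confidence intervals from limma, n = 2 arrays per group. Genes run down the page by role. All symbols are open because 0 of 45 passed the adjusted threshold, and the widest interval belongs to Psmf1.

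At 3 h the median difference over the members was -0.02, as over all genes and probes (-0.02), and the differences ran between -0.21 for Psme3, which encodes a nuclear activator of the core, and 0.13 for Psmb7, the trypsin-like catalytic subunit. Psme3 measured 1.06 and 1.12 on the KD arrays, against 1.35 and 1.25 on the control arrays. Psmg1, which encodes a partner in a chaperone dimer for the alpha ring, had the smallest p of the members. It measured 4.17 and 4.24 on the KD arrays and 4.40 and 4.39 on the control arrays, a difference of -0.19 ± 0.09 (SE, limma adjusted p = 0.562). For both genes the KD arrays were lower without overlap. The groups did not overlap for 6 members that were higher with KD supernatant and for 13 that were lower, against 20.5% and 26.8% of all genes and probes.

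In the core at 3 h, the alpha ring gene Psma5 measured 5.91 and 5.89 on KD arrays and 6.13 and 6.01 on control arrays (difference -0.16 ± 0.08, limma adjusted p = 0.564). The chymotrypsin-like catalytic subunit gene Psmb5 measured 6.82 and 6.68 on KD arrays and 6.91 and 6.86 on control arrays (difference -0.13 ± 0.07, limma adjusted p = 0.609), while a second probe of the gene gave 0.05. The ATPase gene Psmc4 measured 4.03 and 3.97 on KD arrays, against 3.86 and 3.95 on control arrays, and the lid gene Psmd12 measured 6.06 and 5.94 on KD arrays, against 6.10 and 6.10 on control arrays. Their differences of 0.10 ± 0.08 and -0.10 ± 0.08 had limma adjusted p-values of 0.764 and 0.75.

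At 6 h the median difference was 0.06 over the members and 0.00 over all genes and probes, and 35 of 45 members lay above 0. All 17 members in the 19S particle were above 0, with a median of 0.07 and a range of 0.01 for Psmd3 to 0.35 for Psmd14, but none passed the test. Of the 14 core genes 9 were above 0, with a median of 0.02. How many members lay above 0, and by how much, depended on the scaling. With quantile normalization 26 of 45 members and 11 of the 17 in the 19S particle lay above 0, with a member median of 0.01. With median scaling and without scaling the member median was larger and also above 0. The median over all genes and probes was then 0.19 and 0.05. KD and control arrays did not overlap for 20 members that were higher with KD supernatant and for 0 that were lower, where 26.0% and 21.7% of all genes and probes did so. Members share arrays, so these counts are not independent of each other.

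Psmd14, the lid's deubiquitinase that cuts ubiquitin chains off the substrate, had the smallest p at 6 h. It measured 2.97 and 3.12 on the KD arrays and 2.63 and 2.76 on the control arrays, a difference of 0.35 ± 0.09 (SE, limma adjusted p = 0.137; 1.28-fold, 95% interval 0.12 to 0.58 in log2). Both KD arrays stood above both control arrays. At 3 h the same gene measured 2.94 and 2.85 with KD and 2.84 and 2.99 with control supernatant, and there the arrays overlapped. The KD effect at 6 h minus that at 3 h was 0.37 ± 0.13 (limma adjusted p = 0.533). Psmc4 was next, with 4.08 and 4.19 on KD arrays and 3.96 and 3.86 on control arrays at 6 h (difference 0.23 ± 0.08, limma adjusted p = 0.195). Its spot on control 6 h replicate 2 lay in a bright patch of the array, and without that spot the difference was 0.18 (limma adjusted p = 0.371).

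The remaining roles held smaller or noisier differences at 6 h. Psma4 of the alpha ring measured 4.40 and 4.44 on KD arrays and 4.28 and 4.33 on control arrays (limma adjusted p = 0.37), and Psmb2 of the beta ring 2.30 and 2.42 on KD arrays against 2.23 and 2.20 on control arrays (limma adjusted p = 0.373). In the 19S base, the scaffold gene Psmd1 measured 5.69 and 5.70 on KD arrays and 5.65 and 5.59 on control arrays (difference 0.07 ± 0.06). Psmd5, which encodes a chaperone of the 19S base, measured 2.96 and 3.13 on KD arrays and 2.79 and 2.91 on control arrays (difference 0.20 ± 0.09, limma adjusted p = 0.295). In these 4 genes the KD arrays were higher without overlap by the brightest probe, and none passed the test. A second Psma4 probe measured 4.05 and 4.02 on KD arrays and 4.01 and 4.02 on control arrays, which overlapped (difference 0.02). The 4 activator genes lay between -0.09 for Psme2, a subunit of an interferon-inducible activator cap, and 0.06 for Psme4. Psme3ip1 measured 2.41 and 2.54 on KD arrays and 2.27 and 2.30 on control arrays (difference 0.19 ± 0.07, limma adjusted p = 0.225).

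Psmf1 and Psmg4 had the widest errors of the members, with SEs of 0.26 and 0.17, and each had 1 control 6 h array far from the other. Psmf1, an inhibitor that binds the core, measured 0.80 and 0.77 on the KD 6 h arrays and 0.70 and 1.54 on the control 6 h arrays, a gap of 0.84 between duplicates and the widest of any member. The spot at 1.54 lay in a bright patch of that array. The KD minus control difference at 6 h was -0.33 ± 0.26 with all arrays (limma adjusted p = 0.51) and 0.08 with the patch masked or without control 6 h replicate 2. Without control 6 h replicate 1 it was -0.75 (limma adjusted p = 0.0265), the only member past the threshold between the supernatants at 6 h in that fit. Psmg4, a chaperone of the alpha ring, measured 3.37 and 3.48 on the KD 6 h arrays and 2.89 and 3.40 on the control 6 h arrays. Its difference was 0.28 ± 0.17 (limma adjusted p = 0.408), and 0.53 without control 6 h replicate 2 (limma adjusted p = 0.0406), again the only member past the threshold between the supernatants at 6 h. Over time with control supernatant, Psmf1 differed by 0.44 ± 0.26 with all arrays and 0.86 without control 6 h replicate 1, and Psmg4 by -0.22 ± 0.17 with all arrays and -0.47 without control 6 h replicate 2. Both values without an array passed (limma adjusted p = 0.00289 and 0.0154).

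The difference of the KD effect between 6 h and 3 h passed the limma test for 0 of 45 members, 1 of which, Psmd14, had an unadjusted p under 0.05. It passed for 0 of the 25793 genes and probes (0%), of which 2267 had an unadjusted p under 0.05. For 37 of 45 members the KD effect was higher at 6 h than at 3 h, with a median difference of 0.08 over the members and 0.03 over all genes and probes. For Psmb5 it was 0.24 ± 0.10 by the brightest probe (limma adjusted p = 0.569) and -0.02 by a second probe.

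The 3 immunoproteasome genes, which replace the catalytic beta subunits under interferon, also passed no limma test between the supernatants, with 2 of 3 at an unadjusted p under 0.05 at 6 h, where 19.32% of all genes and probes were. All 3 were below 0 at 6 h, and 1 of 3 with each array scaled by its median. Psmb8 measured 3.06 and 2.87 on KD arrays and 3.21 and 3.17 on control arrays, and its difference was -0.23 ± 0.08 (limma adjusted p = 0.234). Psmb9 was at -0.18 ± 0.07 and Psmb10 at -0.11 ± 0.11. Over time Psmb10 rose with control supernatant, with 6.38 and 6.09 at 6 h against 5.86 and 5.77 at 3 h (0.42 ± 0.11, limma adjusted p = 0.0258). This call was lost with median scaling, with no filter on dim probes, in the fit of only the 4 arrays compared, and on leaving out control 3 h replicate 1, control 3 h replicate 2 or control 6 h replicate 1. Over the fits that left out 1 array the difference ran between 0.28 and 0.56. With KD supernatant it differed by 0.31 ± 0.11 (limma adjusted p = 0.0663).

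Between 3 h and 6 h a minority of proteasome genes moved, most of them down, though with KD supernatant more rose than fell with quantile normalization (9 and 3), as many rose as fell with normexp background correction (4 each), and 0 of 45 passed limma's threshold with no scaling. With KD supernatant 9 of 45 members changed (20%), 3 higher and 6 lower, while 39.9% of all genes and probes changed, 17.7% higher and 22.2% lower. With control supernatant 7 of 45 changed (15.6%), 0 higher and 7 lower, against 39.9% of all genes and probes, 16.3% higher and 23.6% lower. Psmc2, Psmc6, Psmd7, Psmd12, Psme4 and Psme3ip1 fell in both, which is 66.7% of the KD calls and 85.7% of the control calls. The 2 comparisons share no array, but the same model was fitted to all arrays and gave each gene the same SE in both. Slide row also went with time in both, so the 2 lists of calls are not independent. This overlap was not set beside that of all genes and probes. Of the 14 core genes 1 changed with KD supernatant and 0 with control supernatant, and of the 17 members in the 19S particle 4 fell in each. The test of a difference between these shares was not made. Adrm1 and Sem1, 19S genes with other symbols, are counted with the other pathway genes below. Adrm1 fell in both supernatants and Sem1 with control supernatant only by the threshold. The 6 h and 3 h arrays did not overlap for 15 members higher and 10 lower at 6 h with KD supernatant, where 29.7% and 47.8% of all genes and probes did so. With control supernatant they did not overlap for 4 higher and 17 lower, where 26.8% and 40.6% of all did so.

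**Figure D2:**
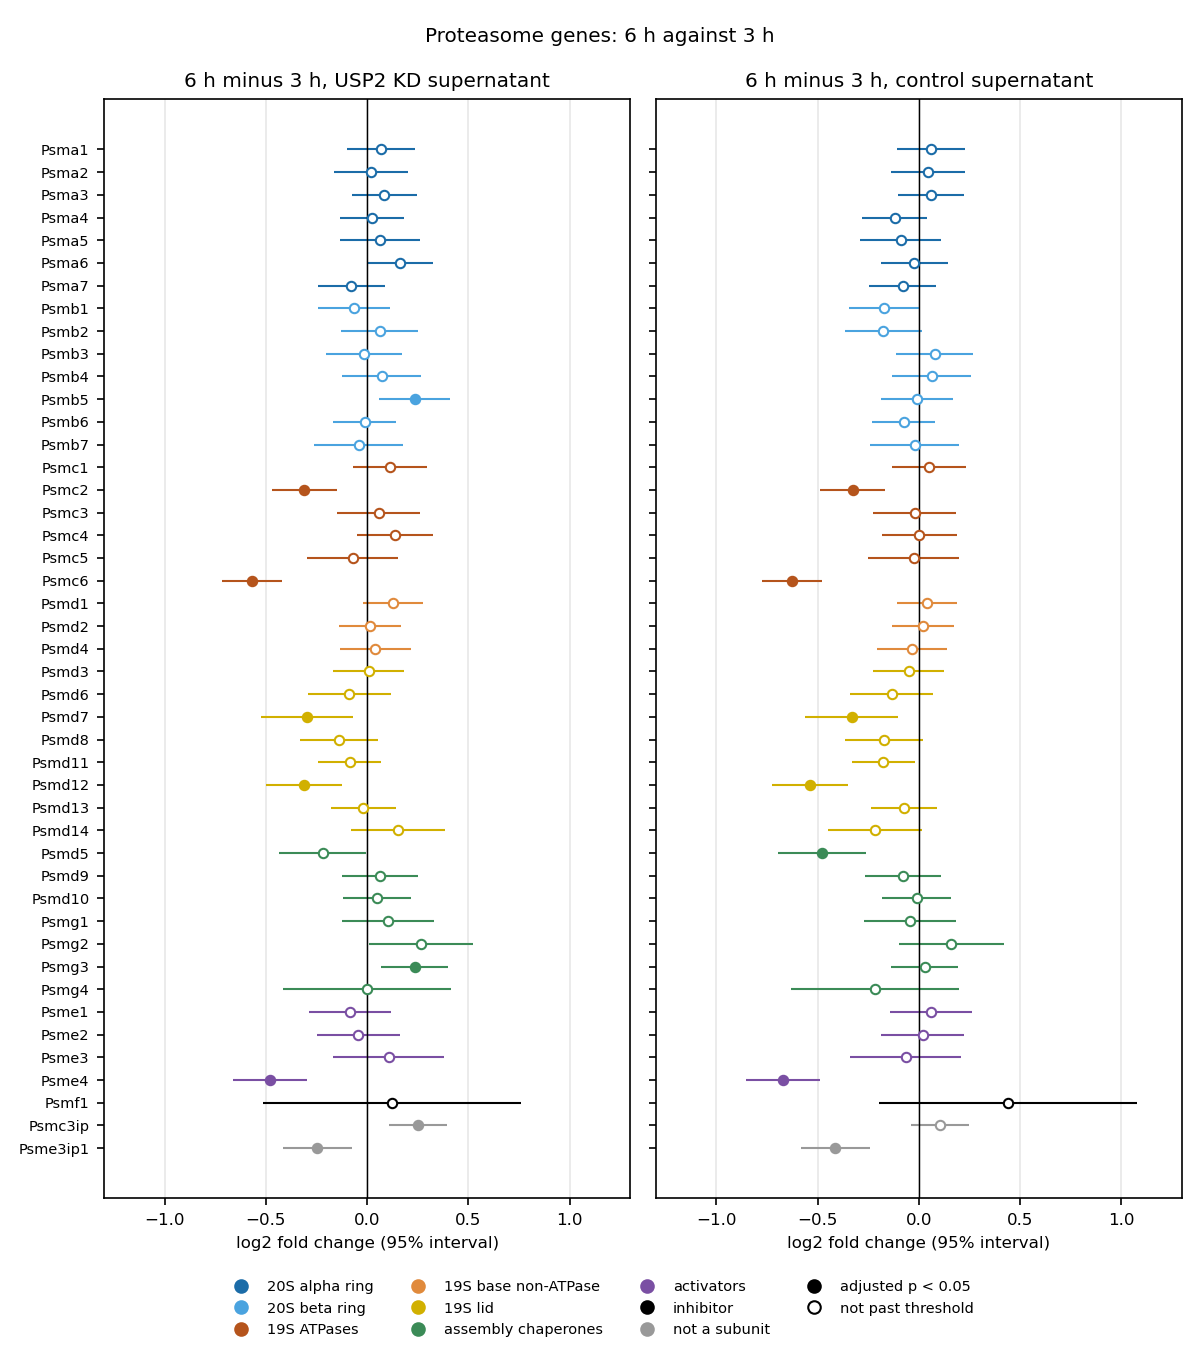
Log2 fold change of 6 h over 3 h for each of the 45 proteasome genes with KD supernatant (left) and control supernatant (right), with 95% confidence intervals from limma, n = 2 arrays per group. Filled symbols passed the adjusted threshold, 9 on the left and 7 on the right. Psmc6 and Psme4 sit farthest below 0 among the filled symbols in both panels.

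Psmc6, one of the ATPases of the 19S ring, had the smallest p over time in both supernatants. With KD supernatant it measured 3.68 and 3.70 at 6 h, against 4.26 and 4.25 at 3 h, and fell by 0.57 ± 0.06 on the log2 scale (limma adjusted p = 0.00108). On control supernatant Psmc6 measured 3.67 and 3.66 at 6 h, against 4.33 and 4.25 at 3 h, and fell by 0.63 ± 0.06 (limma adjusted p = 0.000737). The 4 arrays at 6 h spanned less than 0.05 and stood below all 4 arrays at 3 h. Psmc2, another ATPase of the ring, fell by 0.31 ± 0.06 with KD supernatant, with 5.68 and 5.58 at 6 h against 5.92 and 5.95 at 3 h (limma adjusted p = 0.0127). With control supernatant it fell by 0.33 ± 0.06, with 5.59 and 5.54 at 6 h against 5.91 and 5.88 at 3 h (limma adjusted p = 0.0104). The other 4 ATPase genes, Psmc1, Psmc3, Psmc4 and Psmc5, stayed between -0.07 and 0.14 with KD supernatant and between -0.03 and 0.05 with control supernatant, so 2 of 6 ATPases of the same ring fell by the test.

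Psme4 encodes a large single-chain activator that caps the core, known from mice for its role in sperm development and histone degradation. With KD supernatant it measured 1.09 and 1.06 at 6 h and 1.56 and 1.54 at 3 h (fell by 0.48 ± 0.07, limma adjusted p = 0.00424). On control supernatant Psme4 measured 1.07 and 0.95 at 6 h and 1.74 and 1.62 at 3 h (fell by 0.67 ± 0.07, limma adjusted p = 0.00119). All 6 h arrays lay below all 3 h arrays. The other 3 activator genes did not pass the test over time and lay between -0.08 and 0.11.

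In the lid, Psmd12 and Psmd7 fell in both supernatants. Psmd12, a scaffold subunit of the lid, measured 5.75 and 5.62 at 6 h and 6.06 and 5.94 at 3 h with KD supernatant, and fell by 0.31 ± 0.08 (limma adjusted p = 0.0224). On control supernatant Psmd12 measured 5.56 and 5.56 at 6 h and 6.10 and 6.10 at 3 h, and fell by 0.54 ± 0.08 (limma adjusted p = 0.00295). Psmd7, which pairs with Psmd14 in the lid, measured 4.68 and 4.80 at 6 h against 5.10 and 4.98 at 3 h with KD supernatant (fell by 0.30 ± 0.09, limma adjusted p = 0.0484). With control supernatant it measured 4.72 and 4.57 at 6 h against 4.92 and 5.04 at 3 h (fell by 0.33 ± 0.09, limma adjusted p = 0.0343). The 6 h and 3 h arrays did not overlap in either gene. Psmd14 itself differed between times by 0.15 ± 0.09 with KD supernatant and by -0.22 ± 0.09 with control supernatant, and neither passed. The 3 base genes without ATPase activity, Psmd1, Psmd2 and Psmd4, stayed between 0.01 and 0.13 with KD and between -0.03 and 0.04 with control supernatant.

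Psmd5 fell with control supernatant, where it measured 2.79 and 2.91 at 6 h and 3.30 and 3.36 at 3 h (fell by 0.48 ± 0.09, limma adjusted p = 0.00763). With KD supernatant it measured 2.96 and 3.13 at 6 h and 3.31 and 3.22 at 3 h, a difference of -0.22 ± 0.09 that did not pass (limma adjusted p = 0.0971). The test of the difference between the supernatants was not passed either. Psme3ip1 fell in both, with 2.41 and 2.54 at 6 h against 2.74 and 2.70 at 3 h with KD supernatant and 2.27 and 2.30 at 6 h against 2.67 and 2.72 at 3 h with control supernatant (limma adjusted p = 0.0347 and 0.00545). Its call with KD supernatant was lost in 10 of the 20 alternatives and that with control supernatant in 1.

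The 3 members that rose did so with KD supernatant and by small amounts. Psmb5 measured 6.95 and 7.02 at 6 h and 6.82 and 6.68 at 3 h with KD supernatant (0.23 ± 0.07, limma adjusted p = 0.0462), and 6.87 and 6.88 at 6 h against 6.91 and 6.86 at 3 h with control supernatant (-0.01 ± 0.07). Psmg3, a chaperone of the alpha ring, measured 2.18 and 2.10 at 6 h and 1.93 and 1.87 at 3 h with KD supernatant (0.23 ± 0.07, limma adjusted p = 0.0372), and 2.08 and 1.99 at 6 h against 2.00 and 2.01 at 3 h with control supernatant (0.03 ± 0.07). Psmc3ip measured 1.26 and 1.28 at 6 h and 1.04 and 1.01 at 3 h with KD supernatant (0.25 ± 0.06, limma adjusted p = 0.0189). With control supernatant it differed by 0.11 ± 0.06. None of these differences between the supernatants passed the test, and a second probe of Psmb5 differed between times by 0.01 with KD supernatant (limma adjusted p = 0.919). The Psmg3 call was lost in 10 of the 20 alternatives, among them median scaling, no scaling and leaving out any KD array or either control 3 h array. That of Psmc3ip was lost in 7 and that of Psmb5 in 15.

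**Figure D3:**
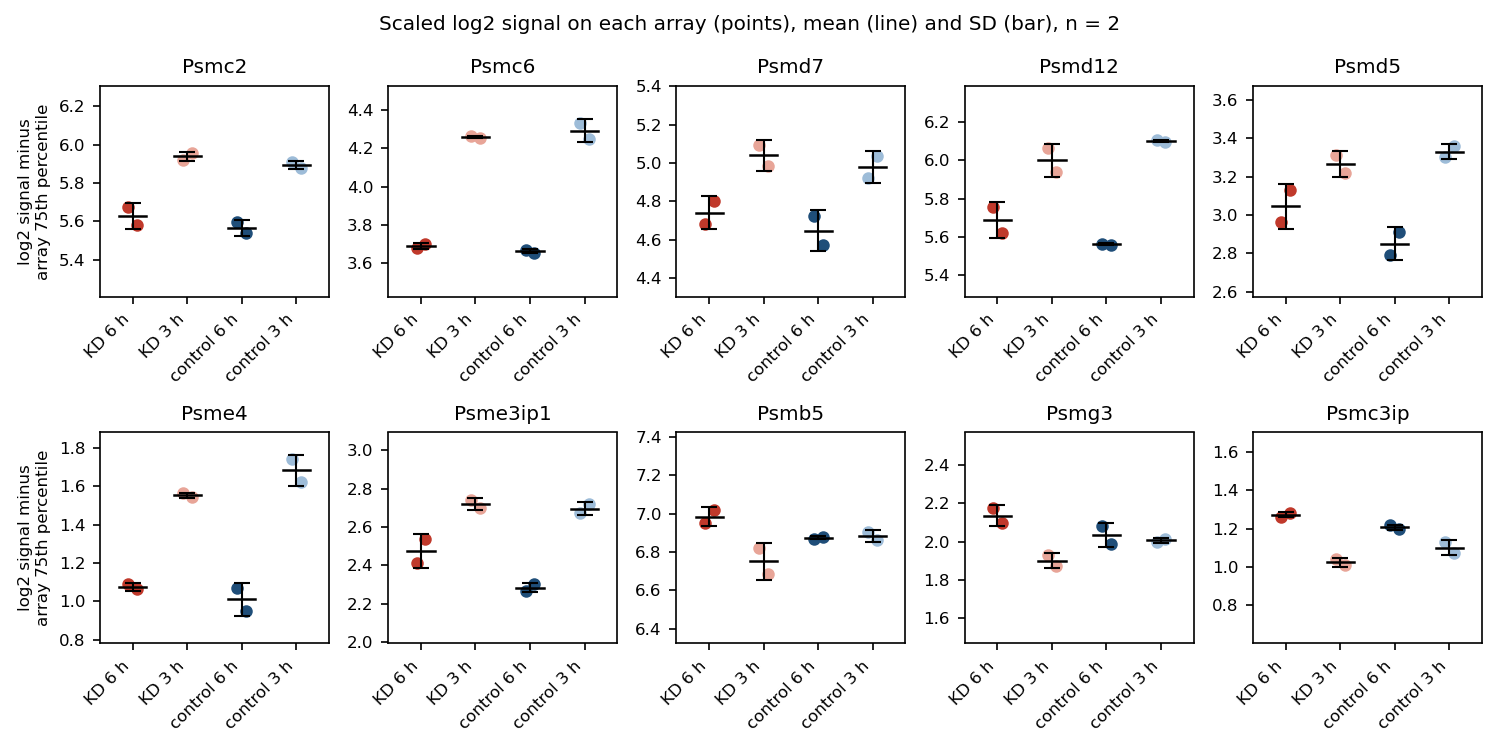
Scaled log2 signal of the 10 proteasome genes that passed the test over time in at least 1 supernatant, with 1 panel per gene and vertical axes of equal span. Points are single arrays, lines are group means and bars the SD (n = 2). In Psmc6, Psme4, Psmd12 and Psmc2 the 6 h arrays of both supernatants lie below the 3 h arrays.

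Nfe2l1 and Nfe2l2 are known to bind the antioxidant response core TGACNNNGC, and promoters of 4 members that changed are shown because they held it. Those of the other changed members in the table, such as Psmc2 and Psmg3, did not. The core was searched on both strands of the window from 250 bases before to 50 bases after each gene's start. Sequences are RefSeq's, build GRCm38.p6, written 5′ to 3′ along the gene's strand, with the match in capitals. Psmc6 (chr14:45329574-45329873, plus strand), Psmd12 (chr11:107479278-107479577, plus strand) and Psme4 (chr11:30771525-30771824, plus strand) fell over time in both supernatants. Psmb5 (chr14:54617946-54618245, minus strand) rose with KD supernatant by its brightest probe.
Psmc6 promoter: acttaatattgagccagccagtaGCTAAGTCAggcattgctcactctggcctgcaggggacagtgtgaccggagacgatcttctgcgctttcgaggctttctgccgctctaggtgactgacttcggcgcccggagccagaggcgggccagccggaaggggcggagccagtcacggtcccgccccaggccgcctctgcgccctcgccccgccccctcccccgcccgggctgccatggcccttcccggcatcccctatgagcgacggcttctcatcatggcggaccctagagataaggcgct
Psmd12 promoter: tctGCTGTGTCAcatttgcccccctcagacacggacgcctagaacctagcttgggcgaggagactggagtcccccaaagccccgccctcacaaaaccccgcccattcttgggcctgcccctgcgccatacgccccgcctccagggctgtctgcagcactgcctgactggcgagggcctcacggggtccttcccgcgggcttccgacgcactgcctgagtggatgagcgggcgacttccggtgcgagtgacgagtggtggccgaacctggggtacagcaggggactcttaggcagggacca
Psme4 promoter: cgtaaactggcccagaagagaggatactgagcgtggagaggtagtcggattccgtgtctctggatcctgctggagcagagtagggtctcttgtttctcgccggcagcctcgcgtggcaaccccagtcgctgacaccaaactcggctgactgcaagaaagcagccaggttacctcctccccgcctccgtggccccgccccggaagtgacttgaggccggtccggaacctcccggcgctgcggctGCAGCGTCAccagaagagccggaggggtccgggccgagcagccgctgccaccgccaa
Psmb5 promoter: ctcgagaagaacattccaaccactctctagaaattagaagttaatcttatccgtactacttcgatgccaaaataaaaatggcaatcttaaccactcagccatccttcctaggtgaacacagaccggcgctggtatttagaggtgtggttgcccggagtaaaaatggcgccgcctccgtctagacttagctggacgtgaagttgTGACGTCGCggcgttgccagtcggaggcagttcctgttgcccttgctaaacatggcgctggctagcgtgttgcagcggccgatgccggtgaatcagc

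The match lay on the opposite strand in Psmc6 (GCTAAGTCA, from base -227), in Psmd12 (GCTGTGTCA, from base -247) and in Psme4 (GCAGCGTCA, from base -7), and on the gene's strand in Psmb5 (TGACGTCGC, from base -47), counted from the gene's start. Of the 38 tested members with a promoter in the table, 6 held the core (15.8%), namely Psmb5, Psmb6, Psmc6, Psmd9, Psmd12 and Psme4, beside 14.0% of the 27025 genes with a promoter. Of the 6 members with a promoter in the table that fell over time in either supernatant, 3 held it. These 6 were picked by their fall in these data and are too few to set against those shares. Of the other holders, Psmb6 and Psmd9 did not pass over time, and Psmb5 rose with KD supernatant by its brightest probe. The letters CCAAT, searched the same way, were in 14 of the 38 (36.8%) and in 41.1% of all genes' promoters. A match describes letters in this window and is not evidence of binding.

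How many members passed with KD supernatant depended on single arrays. The count of 9 became 2 without KD 3 h replicate 1, 3 without KD 3 h replicate 2, 4 without KD 6 h replicate 1, 3 without KD 6 h replicate 2 and 5 when either of the control 3 h arrays was left out. It was 9 when either of the control 6 h arrays was left out, with Psmg2 past the threshold in place of Psmb5. Psmc6 and Psme4 passed in each of these fits and Psmb5 in none of them. Psmd7 passed with KD supernatant in 8 of the 20 alternatives tried and with control supernatant in 9. With control supernatant the count stayed between 5 and 8 over the 8 fits. Psmc6, Psme4, Psmd12, Psmd5 and Psme3ip1 passed in every one of them.

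Scaling by the median, or not scaling, shifted all genes of an array by the same amount and with them the members. Quantile normalization is not such a shift. Under it the member medians rose by more than those over all genes and probes. The latter were -0.08 with KD and -0.06 with control supernatant, in place of -0.11 and -0.07. With each array scaled by its median, the median over all genes and probes was -0.20 with KD and -0.27 with control supernatant, in place of -0.11 and -0.07, and the members that fell numbered 5 and 19, with 0 higher in either. In that fit 27.4% of all genes and probes fell with KD and 37.7% with control supernatant, so 19 of 45 with control supernatant lay near the share of all genes. With quantile normalization 9 members rose and 3 fell with KD supernatant, and 2 rose and 6 fell with control supernatant. Over all genes and probes 19.1% rose and 21.6% fell there with KD, and 18.1% and 23.6% with control supernatant. Psmc2, Psmc6 and Psme4 were lower in both supernatants under median scaling and quantile normalization. Without any scaling the calls were 0 with KD and 2 with control supernatant, Psmc6 and Psme4, where 21.3% and 22.2% of all genes and probes passed.

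By the 75th percentile scaling most members differed little between times. With KD supernatant 34 of 45 members (75.6%) differed between times by less than 0.2 in log2, where 34.5% of all genes and probes did, and with control supernatant 35 of 45 (77.8%), where 37.5% did. With each array scaled by its median, 37 of 45 stayed under 0.2 with KD supernatant, where 28.55% of all genes and probes did. With control supernatant only 14 of 45 (31.1%) did under that scaling, where 24.7% of all genes and probes did. Without scaling 22 of 45 did with KD supernatant, where 38.2% of all genes and probes did. Over all genes and probes the shares with KD and control supernatant were 44.0% and 49.7% with normexp background correction. With quantile normalization they were 33.9% and 35.0%. Shares of the members are not given for these settings. By the 75th percentile scaling the median absolute change was 0.09 with KD and 0.08 with control supernatant over the members, and 0.31 and 0.30 over all genes and probes. The median SE of a difference was 0.07 over the members and 0.11 over all genes and probes, which were not matched to the members in brightness. The alpha ring gene Psma2 differed between times by 0.02 ± 0.07 with KD and 0.05 ± 0.07 with control supernatant. Psmb6, the caspase-like catalytic subunit, differed by -0.01 ± 0.06 with KD and -0.08 ± 0.06 with control supernatant.

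**Figure D4:**
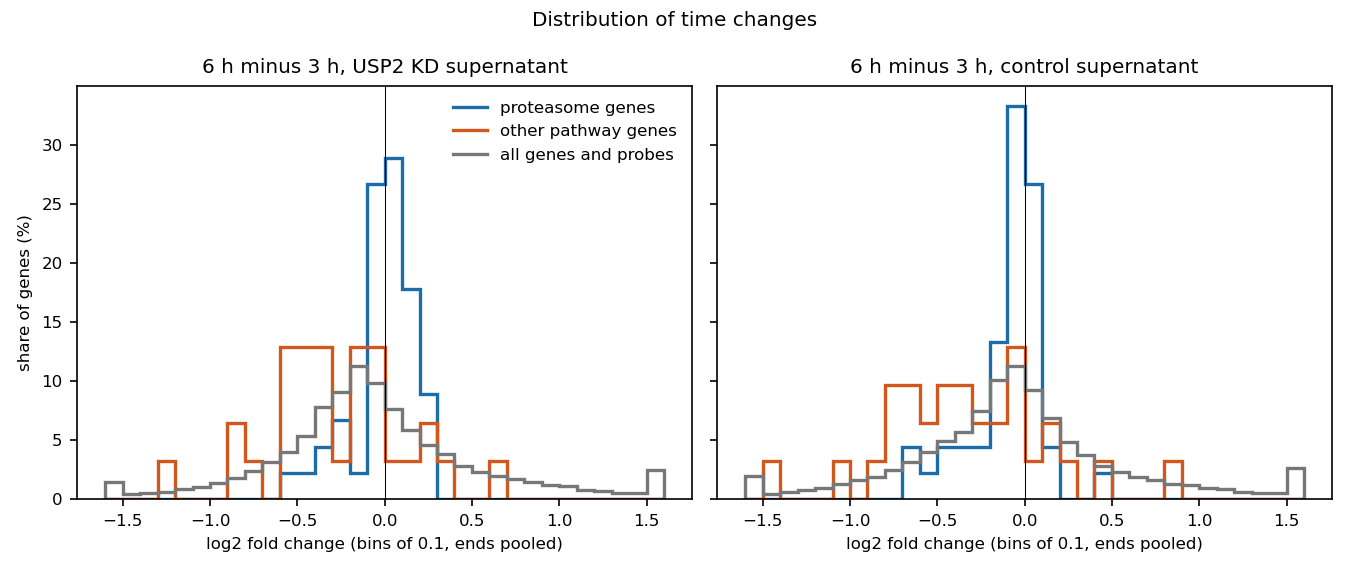
Share of genes (vertical axis, percent) by log2 fold change of 6 h over 3 h (bins of 0.1, the end bins holding all values beyond) with KD supernatant (left) and control supernatant (right). Blue is the 45 proteasome genes, orange the 31 other genes of the pathway and grey all 25793 genes and probes. The blue outline is concentrated within 0.2 of 0, and the orange outline lies mostly below 0.

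Other genes of the pathway, a list of 32 regulators, ubiquitin genes and proteasome-bound factors of which 31 were tested, held more genes that fell over time than rose, under each scaling tried. Between KD and control supernatant 0 of 31 passed in limma at 3 h and 0 of 31 at 6 h, with 2 and 5 at an unadjusted p under 0.05. Of all genes and probes 0.244% and 2.28% passed there, and 10.56% and 19.32% had an unadjusted p under 0.05. Over time with KD supernatant 2 rose and 15 fell, where 17.7% of all genes and probes rose and 22.2% fell. With control supernatant 1 rose and 18 fell, where 16.3% of all rose and 23.6% fell. The medians of the list were -0.31 with KD and -0.40 with control supernatant, beside -0.11 and -0.07 over all genes and probes. In both supernatants 14 of them fell, among them Adrm1, Akirin2, Ddi2, Nfe2l1, Nfe2l2, Nploc4, Rad23b, Syvn1, Usp14, Zfand2a and Zfand5.

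Nfe2l1 and Nfe2l2 themselves were in this list. Nfe2l2 measured 3.52 and 3.68 at 6 h and 4.94 and 4.80 at 3 h with KD supernatant (fell by 1.27 ± 0.12, limma adjusted p = 0.000685), and 3.22 and 3.49 at 6 h against 4.82 and 4.83 at 3 h with control supernatant (fell by 1.47 ± 0.12, limma adjusted p = 0.000406). Nfe2l1 measured 0.99 and 0.99 at 6 h and 1.29 and 1.31 at 3 h with KD supernatant (fell by 0.31 ± 0.07, limma adjusted p = 0.0136). With control supernatant it measured 0.99 and 1.02 at 6 h and 1.38 and 1.498 at 3 h (fell by 0.43 ± 0.07, limma adjusted p = 0.00384). Ddi2, the protease that cleaves the Nfe2l1 protein, fell by 0.82 with KD and 0.87 with control supernatant. Ngly1, the enzyme that removes sugar chains from Nfe2l1, rose by 0.69 and 0.84. Its signal was low, between -3.77 and -2.85 over the 8 arrays.

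Several factors that bind the proteasome fell too. Adrm1, a ubiquitin receptor of the 19S base whose symbol the pattern does not take in, measured 4.08 and 4.22 at 6 h and 4.78 and 4.94 at 3 h with KD supernatant (fell by 0.72 ± 0.10, limma adjusted p = 0.00292), and 4.04 and 3.98 at 6 h against 4.80 and 4.61 at 3 h with control supernatant (fell by 0.70 ± 0.10, limma adjusted p = 0.0031). Usp14, a deubiquitinase bound to the base, fell by 0.42 and 0.58, and the stress-induced zinc finger gene Zfand2a by 0.86 and 1.00. In each of these genes all 6 h arrays lay below all 3 h arrays. The mouse gene Usp2 fell by 0.44 ± 0.11 over time with KD supernatant (limma adjusted p = 0.0207) and differed by -0.31 ± 0.11 with control supernatant (limma adjusted p = 0.0664), and the difference between the supernatants did not pass (limma adjusted p = 0.786). Between KD and control supernatant it differed by 0.13 ± 0.11 at 3 h and 0.00 ± 0.11 at 6 h. The signal of Usp2 was low, between -3.17 and -2.56 over the 8 arrays.

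**Figure D5:**
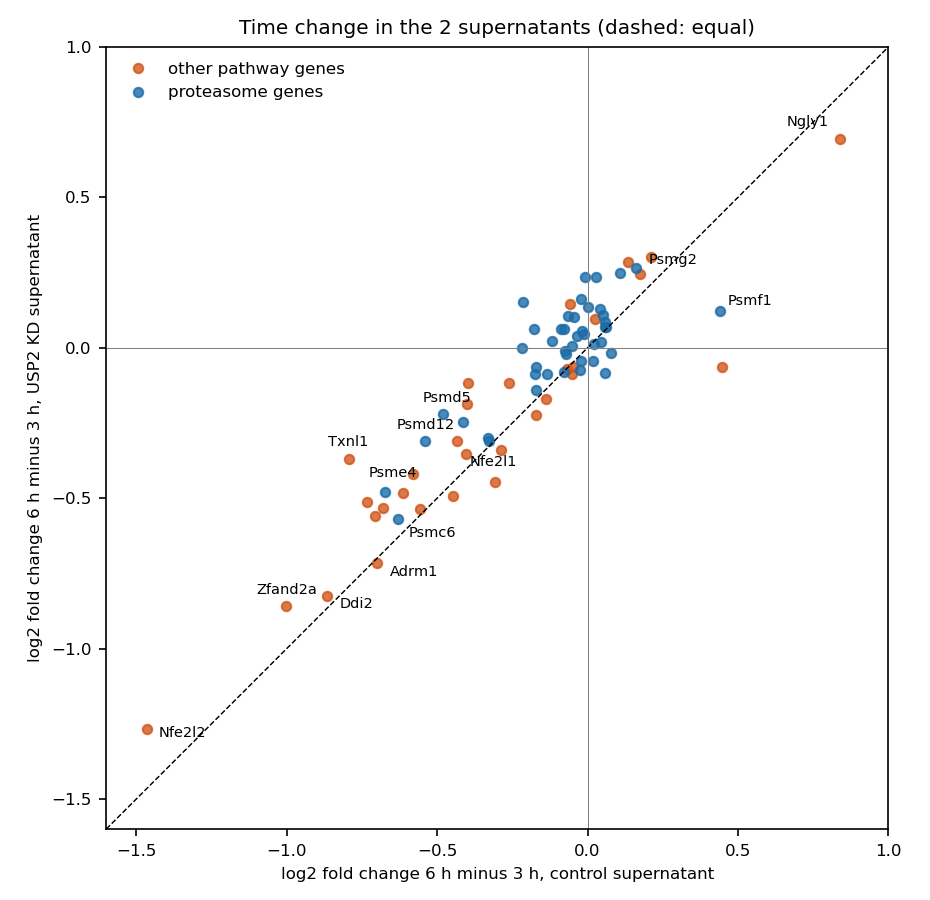
Log2 fold change of 6 h over 3 h with KD supernatant (vertical axis) against control supernatant (horizontal axis) for the 45 proteasome genes (blue) and 31 other genes of the pathway (orange). The dashed line marks equal change. Most proteasome genes cluster near 0, Psmc6, Psme4, Psmd12 and Psmd5 lie lower left, and Nfe2l2 lies farthest down at -1.27 and -1.47.

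The changes of the members in the 2 supernatants had a Pearson r of 0.82 over the 45 genes, given as a description, since these genes share their arrays. The sign was the same for 29 members and opposite for 16.

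Where a gene had a second probe above background, the probes could be set side by side. Of the 11 such members, 4 passed over time with KD supernatant by the brightest probe and 4 by the other, 3 of them by both (Psmc2, Psmd12 and Psme4). With control supernatant 3 passed by the brightest probe and 4 by the other, the same 3 by both. Between KD and control supernatant 8 of 11 had the same sign by both probes at 3 h and 9 of 11 at 6 h, where Psmc3 and Psmg1 differed in sign. Psmd10, which encodes an assembly chaperone of the 19S base, had the widest gap between its probes over time. Its second probe measured 0.46 and 0.51 at 6 h and -0.02 and 0.09 at 3 h with KD supernatant and rose by 0.45 ± 0.07 (limma adjusted p = 0.00391). It rose by 0.25 ± 0.07 with control supernatant (limma adjusted p = 0.032), while the brightest probe differed by 0.05 ± 0.07 with KD and -0.01 ± 0.07 with control supernatant. Probe sequences were not used here, so a part of processed pseudogenes or other transcripts in a probe's signal was not tested.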

How the data were processed

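Total RNA of 8 samples of 3T3-L1 cells, 4 groups of 2, was labelled with Cy3 from 0.1 ug RNA and hybridised to one-colour arrays, per the labels' protocols. The authors' deposited scanner files give a processed signal for each spot, which is a background-subtracted intensity on a linear scale. Per the submitters' processing notes the software was Agilent Feature Extraction 10.7.3.1. The authors also deposited a table of log2 values, which matched the log2 of the processed signal up to a constant for each array, without centring of genes (array medians -4.23 to -3.95). It served as an alternative.

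Control spots and outlier spots (163 to 319 of 59305 per array) were left out. Each array's log2 signals were scaled by its 75th percentile (477.87 to 621.35), and replicate spots were averaged. RefSeq names of assembly GRCm38.p6, used for names only, named 27235 of 55681 probes through their transcript and 20 by symbol. The other 28426 stayed unnamed. Only the 30106 probes with a signal well above background on both arrays of 1 or more groups were kept, with the brightest probe for each gene.

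The 4 group means were fitted to all 8 arrays with limma 3.58.1 (lmFit, eBayes) in R 4.3.3, with 4 residual degrees of freedom and Benjamini-Hochberg adjustment across 25793 genes and probes, after the fit had been tested on simulated data. The number of arrays limits the precision. The rule for named genes let every tested member be named, with values per array for members past the threshold and for the smallest p and largest difference of each role, and with the immunoproteasome and 32 pathway genes as the only others. Members and lists were chosen with earlier results of these data known. A bright patch is an area where the median over a window 11 spots wide lay above the 8-array median by over 0.3 in log2. Alternatives were other scalings, background corrections, filters, probe choices, array weights, a patch mask, a replicate block, the 4 arrays compared alone and leaving out each array. Python 3.11.15 with pandas 2.3.3, numpy 2.4.6 and matplotlib 3.10.9 handled tables and figures.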

Additional observations from a re-analysis of the deposited data

How the results depend on the processing

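The 20 alternatives kept 0 members past the threshold between KD and control supernatant at 3 h, and 0 at 6 h except without a control 6 h array (0 to 1). Medians over the members depended on the scaling. With median scaling they were 0.0584 (KD minus control, 3 h), 0.25 (6 h), 0.184 (difference of the effects), -0.0729 (6 h minus 3 h, KD supernatant) and -0.245 (control supernatant). Without scaling they were -0.0699, 0.112, 0.174, 0.181 and 0.0187 in the same order. Quantile normalization gave 0.0137 (6 h), 0.055 (difference), 0.122 (KD) and 0.084 (control), normexp background gave -0.0233 (control), and the deposited value table gave 0.0891 (6 h) and -0.0727 (control). Leaving out each array gave medians of -0.0358 to -0.0014 (3 h), 0.0377 to 0.0724 (6 h), 0.0601 to 0.107 (difference), 0.005 to 0.0225 (KD) and -0.077 to -0.0144 (control).

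Members past the threshold over time with KD supernatant numbered 5 with median scaling, 0 without scaling, 2 without the filter on dim probes, 4 from the 4 arrays alone and 2 to 9 leaving out each array. With control supernatant they numbered 19 with median scaling, 2 without scaling and 5 to 8 leaving out each array. Of all genes and probes 40.8% passed with KD supernatant with median scaling, 21.3% without scaling, 14.2% without the filter and 42.2% from the 4 arrays alone. With control supernatant 48% passed with median scaling and 22.2% without scaling. The cause was not tested. Signs turned for Psmf1 at 6 h, which was 0.0836 with the patch masked and ran between -0.752 and 0.0836 leaving out each array, and for Psmd10 over time with control supernatant, which was 0.248 by its second probe. Second probes, an alternative chosen after seeing the data, also turned Psmb5 at 3 h (0.0456) and in the difference of the effects (-0.0181). They turned Psmc3 and Psmd9 at 3 h, Psmc3 and Psmg1 at 6 h, and Psmc3 and Psme2 in the difference. Over time they turned Psmc3 and Psmd9 with KD, and Psmb5, Psmc1 and Psme2 with control supernatant. Both probes had the same sign over time for 9 of 11 members with KD and 7 of 11 with control supernatant.

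Replicate numbers did not pair the arrays (correlation of replicate differences between groups -0.05 to 0.09). With a replicate block 7 members passed with KD and 6 with control supernatant, and 0 between supernatants. With 2 arrays a group, differences inside the intervals given were not resolved.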
